A study of Mus musculus with 6 samples.

Results

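Axon guidance ligands and receptors were followed in retinal RNA from mice at postnatal day 7, measured on 6 Affymetrix arrays. The members are the genes of the ephrin, Eph, semaphorin, plexin, Slit, Robo and netrin families and the netrin receptors Dcc, Neo1 and Unc5. They were matched by gene symbol, and the families were chosen with earlier results of these data known. The symbol rule matched 98 probe sets of 58 genes among 22626 non-control probe sets, and left out Epha2. One of the 58, Unc50, matches by spelling but is not a netrin receptor, so the counts below are over 57 genes (95 probe sets) of 12393 genes with a single symbol. Ephb1, Ephb2, Robo2, Unc5a and Unc5d were not analysed here.

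Per the labels, 3 arrays held RNA of C57BL/6 wildtype retinae and 3 held RNA of retinae from C57BL/6 mice with a knockout of 1 gene, which is not reported here. Both groups were at postnatal day 7. The labels do not say whether an array held 1 animal or a pool, or whether the 2 groups were littermates, so the tests below measure the spread between these arrays, which may be partly technical. The comparison asks which transcripts of the maturing retina differ between the genotypes. In such whole-retina RNA, fewer cells of a type and less RNA per cell cannot be told apart.

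Axon guidance cues steer growing axons by attracting or repelling their growth cones. Ephrins are membrane-bound ligands of the Eph receptor tyrosine kinases, and in the retina their counter-gradients help to map ganglion cell axons onto their brain targets. Semaphorins signal mainly through plexins, Slits through Robo receptors, and secreted netrins through Dcc, neogenin and Unc5 receptors. In the postnatal retina the same families also act in laminar targeting of inner neurons and in the growth of blood vessels.

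The arrays differed in overall brightness before scaling, with trimmed means from 171 to 312. Knockout array 1 stood apart, correlating with the other arrays at 0.914 to 0.936, against 0.958 to 0.979 among the other 5. An 18S control read 2573 on wildtype array 2 and 609 on knockout array 1, where the remaining arrays read 38.8 to 54.9. The ratio of 3' to 5' Actb control signal was 1.44 to 1.64 in the wildtype and 1.69 to 2.17 in the knockout arrays, without overlap. For Gapdh that ratio was 0.824 to 0.982 in the wildtype and 0.884 to 1.177 in the knockout arrays, and the groups overlapped. Photoreceptor markers were bright on all arrays, with Nrl, a rod transcription factor, between 5282 and 6873. The summed signal of 6 markers of retinal neurons was 19380 to 20360 in the wildtype and 15760 to 19260 in the knockout arrays, without overlap. The lowest sum was that of knockout array 1. The brightest of the 6 were the photoreceptor genes Sag, Nrl and Crx, with mean signals of 7171, 6147 and 3313. Of the 6, 5 had negative values, with Gnat1 at -0.006, and only Sag had groups without overlap. For 5 astrocyte markers the sum was 1823 to 2355 in the wildtype and 2213 to 2580 in the knockout arrays, with positive values for all 5. That of 6 pigment cell markers was 1119 to 2910 and 2085 to 3261. The summed signal of 9 ganglion cell markers was 9232 to 9907 in the wildtype and 9548 to 10200 in the knockout arrays. Of the 9, 3 had positive values and the others negative ones. Nefl and Nefh, at 0.26 and 0.58, had all knockout arrays above the wildtype arrays, and the groups of the others overlapped. For 8 vascular markers the sum was 1926 to 2379 in the wildtype and 2093 to 2661 in the knockout arrays. The sum of 6 skeletal muscle markers was 438 to 569 in the wildtype and 302 to 375 in the knockout arrays, without overlap. Of the 6, 4 were tested, all with negative values and overlapping groups. The sum of 7 lens markers was 58.3 to 1077 and 130 to 623, and that of 6 microglia markers 759 to 845 and 711 to 1310, with the highest value in knockout array 1. The part of these differences in the values below was not tested.

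No axon guidance gene passed the test. A probe set was tested where its mean scaled signal over the 6 arrays was above 62.4, the 40th percentile, and each gene was read from its probe set with the highest mean. Of the 57 genes, 37 were tested, and 0 had a limma adjusted p under 0.05 (lowest adjusted p = 0.999). The background was 2 of 13575 tested probe sets, or 0.0147%. At an unadjusted p under 0.05 there was 1 gene of 37, against 3.82% of all tested probe sets. A change of at least 1.5-fold without overlap between the groups held for 1 of 37 genes, Efnb2, which was lower in the knockout, where 1.61% of all tested probe sets did so in either direction and 1.36% in the lower one.

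The log2 fold changes, given throughout as knockout minus wildtype on the scale of log2(signal + 19.1), were positive for 23 and negative for 14 of the 37 genes. Their median was 0.07, against 0.00 over all tested probe sets, of which 50.1% were positive. That split depended on the scaling and on single arrays. Without rescaling it was 34 positive and 3 negative, with the median of all probe sets at 0.29, and it was 18 positive without knockout array 3. The 23 positive genes include Plxnd1, whose wildtype mean of 59.1 lay below the filter. It was tested only through its knockout signal, which favoured a positive value. For 34 of the 37 genes the 95% interval lay within a 2-fold change in either direction, and for 9 within a 1.5-fold change. The genes' spread within groups had a median SD of 0.27 on the log2 scale, against 0.23 over all tested probe sets.

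**Figure D1:**
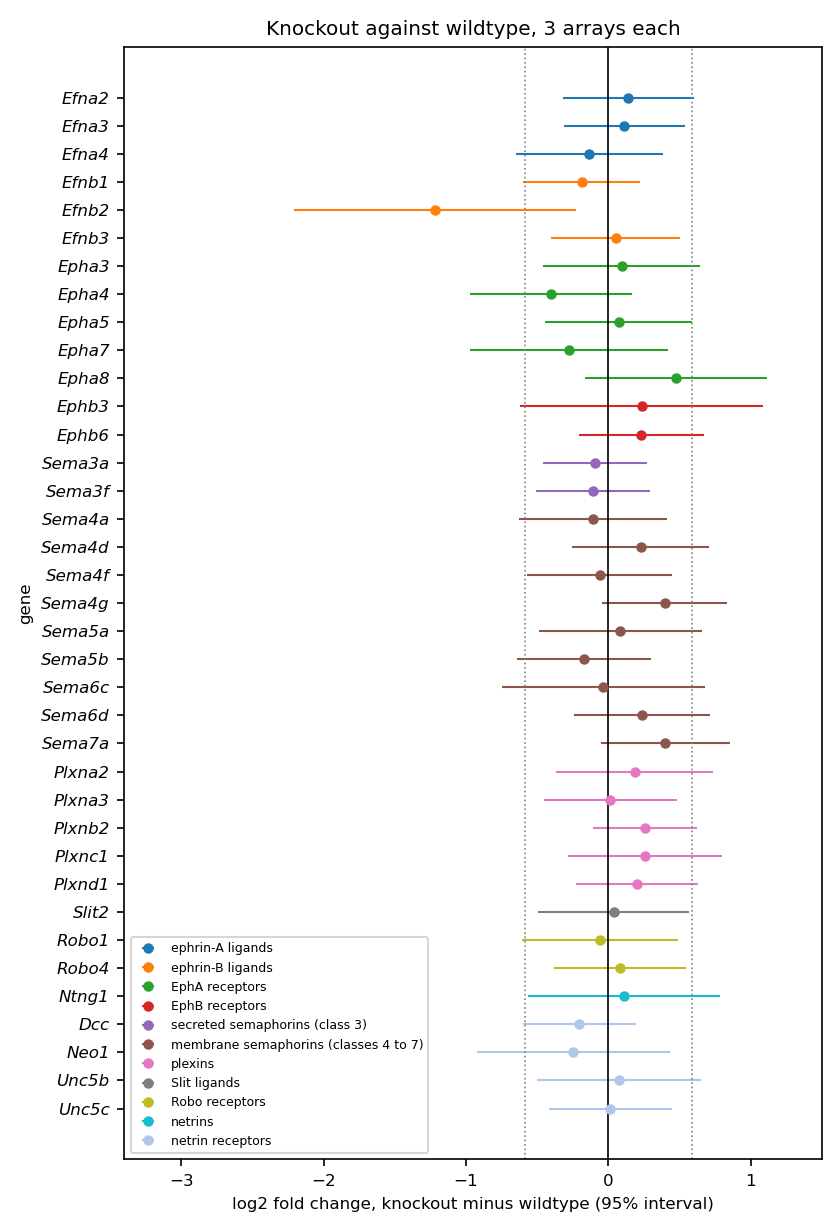
Log2 fold change (knockout minus wildtype, 3 arrays each) of the 37 tested genes as points with 95% intervals, coloured by family, with dotted lines at 1.5-fold in either direction. Only the Efnb2 interval (-2.21 to -0.23) leaves out 0, and its limma adjusted p was 0.999.

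**Figure D2:**
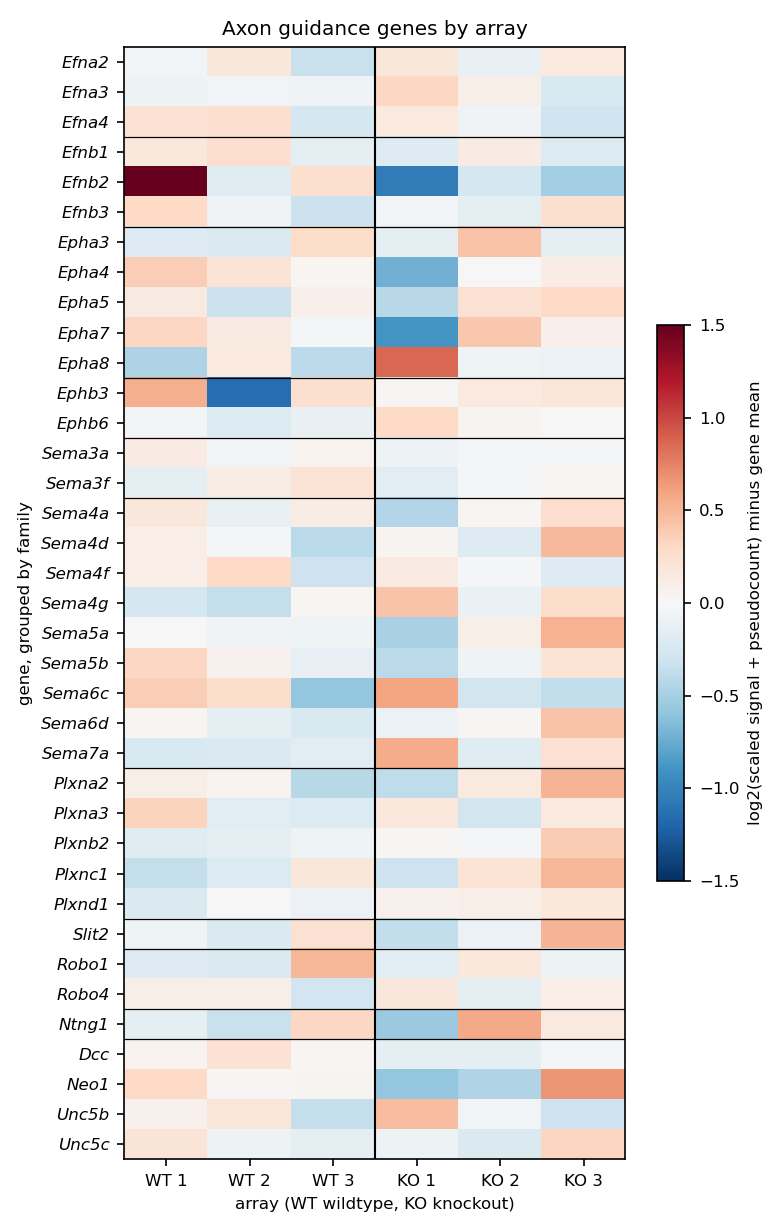
Scaled signal of the 37 tested axon guidance genes on each array, as log2 of signal plus pseudocount minus the gene's mean over 6 arrays (colour, from -1.5 to 1.5), with genes grouped by family and the wildtype (WT) arrays left of the line and the knockout (KO) arrays right of it. Efnb2 in wildtype array 1 (signal 817) is the darkest red cell, Ephb3 in wildtype array 2 (34.3) and Efnb2 in knockout array 1 (99.0) are among the darkest blue cells, and 13 of 37 genes have their lowest value in knockout array 1.

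The groups did not overlap for 5 of the 37 genes, where 9.1% of all tested probe sets did not overlap. All knockout arrays lay above for 3 genes (4.05% of all tested probe sets) and below for 2 (5.05%). Among the 3 was Plxnd1, whose wildtype mean of 59.1 lay below the filter. Plxnd1 was thus tested only through its knockout signal, which favoured knockout arrays above the wildtype arrays. Of the 37 genes, 13 (35.1%) had their lowest signal in knockout array 1, as did 28.2% of all tested probe sets. Knockout array 3 held the highest signal of 12 genes (32.4%), against 15.3% of all tested probe sets. Without knockout array 1, 0 of the 37 genes passed the test and 23 had positive values. In that setting 1 gene was 1.5-fold apart without overlap, as were 1.12% of all tested probe sets.

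Ephrin-B2 (Efnb2) is a transmembrane ligand of EphB receptors and EphA4, found in arterial endothelium and in neurons. Its brightest probe set had a scaled signal of 817, 196 and 270 in wildtype arrays 1 to 3, and of 99.0, 185 and 153 in the knockout arrays 1 to 3. Wildtype array 1 was far above the other 5, and the lowest wildtype and highest knockout values were close. The fitted log2 fold change of Efnb2 was -1.22 ± 0.44 (SE; 95% interval -2.21 to -0.23; limma adjusted p = 0.999). Without wildtype array 1 it was -0.64, and without knockout array 1 it was -0.996. With arrays scaled to the median it was -1.13, and the groups then overlapped. With no rescaling it was -0.93, and Efnb2 was no longer 1.5-fold apart without overlap, while Epha8 was.

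A second tested probe set of Efnb2 went the other way. It had 225, 228 and 252 in the wildtype and 421, 205 and 263 in the knockout arrays, with its highest signal in knockout array 1, where the first probe set had its lowest. The value here was 0.26 ± 0.24 (SE), and the mean of both probe sets gave -0.48 without meeting the 1.5-fold rule. The other 2 probe sets lay below the filter, with signals of 7.8 to 79.4 and of 6.6 to 18.8.

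**Figure D3:**
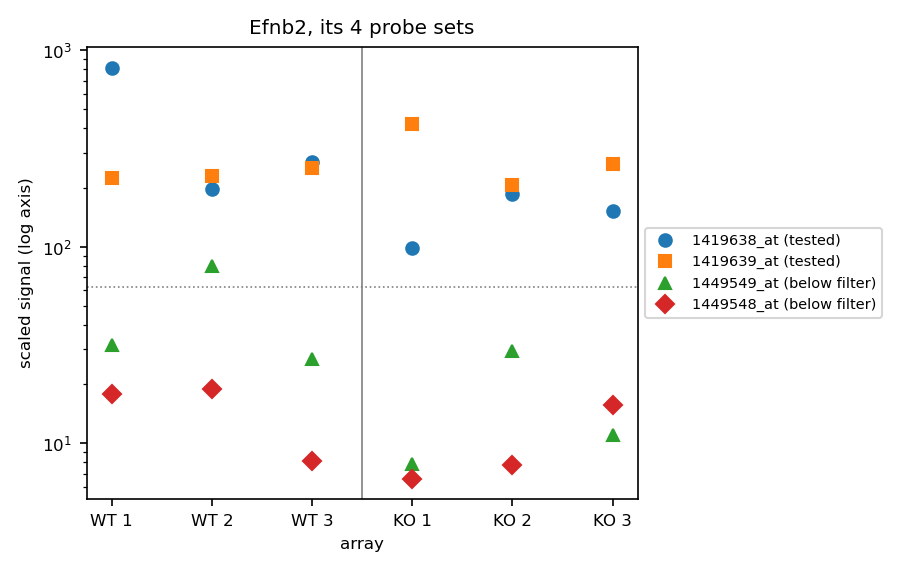
Scaled signal (log axis) of the 4 Efnb2 probe sets on each array, with the filter level of 62.4 as a dotted line. The brightest probe set is at 817 in wildtype array 1 and at 99.0 in knockout array 1, where the second is at 225 and 421.

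The promoter windows of 2 genes are shown for the members at either end of the moderated statistic, Efnb2 at the lower and Sema4g, a transmembrane class 4 semaphorin, at the upper end. They come from RefSeq for GRCm38.p6, run 5' to 3' on the gene's strand across the annotated start, and are 300 bases long. Capitals mark CCAAT boxes and the hexamer GGGCGG, named GC box below, in either orientation. They also mark TATA boxes, spelt TATAAA, in either orientation. The Efnb2 window lies at chr8:8661193-8661492 on the minus strand and the Sema4g window at chr19:44989094-44989393 on the plus strand.
Efnb2: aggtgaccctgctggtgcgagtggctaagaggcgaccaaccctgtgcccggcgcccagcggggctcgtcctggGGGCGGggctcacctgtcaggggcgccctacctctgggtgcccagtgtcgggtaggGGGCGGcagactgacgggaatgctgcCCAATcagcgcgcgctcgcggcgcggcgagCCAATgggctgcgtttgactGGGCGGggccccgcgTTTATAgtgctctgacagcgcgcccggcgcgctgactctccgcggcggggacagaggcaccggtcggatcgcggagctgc
Sema4g: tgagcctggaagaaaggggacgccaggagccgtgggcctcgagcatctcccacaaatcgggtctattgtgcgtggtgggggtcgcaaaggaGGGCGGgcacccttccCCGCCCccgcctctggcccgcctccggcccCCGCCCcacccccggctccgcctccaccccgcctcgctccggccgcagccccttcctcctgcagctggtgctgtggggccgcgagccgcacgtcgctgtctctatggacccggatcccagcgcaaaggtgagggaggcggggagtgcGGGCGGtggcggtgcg
The Efnb2 window held 3 GC boxes, 2 CCAAT boxes and 1 TATA box in the reverse orientation, and the Sema4g window 4 GC boxes and neither of the others. Windows were found for 49 of the 57 genes, 62 windows in all. A GC box was present in 74.2% of them, against 35.7% of 32851 windows of all genes. A CCAAT box was present in 30.6% and 37.4%, and a TATA box in 3.23% and 13.6%. The median window held 21 CpG dinucleotides in the guidance genes and 7 in all genes. The arrays measure RNA and not promoter use, and a match of letters is a description of the window.

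Among the other ephrins, 2 of 3 tested ephrin-A genes and 1 of 2 ephrin-B genes had positive log2 fold changes. Ephrin-A2 (Efna2), a membrane-anchored ligand of the mapping gradients, had 87.6, 105 and 68.5 in the wildtype and 105, 83.1 and 103 in the knockout arrays. Its groups overlapped, with a log2 fold change of 0.14 ± 0.20 (SE). Those of Efna3 and Efna4 were 0.11 and -0.13, and those of the ephrin-B ligands Efnb1 and Efnb3 were -0.19 and 0.05. Efna1 and Efna5 lay below the filter. Efna1 had 64.8, 45.9 and 44.6 in the wildtype and 15.7, 30.4 and 48.9 in the knockout arrays, and Efna5, a ligand known from retinotopic mapping, stayed at or below 19.0 on all arrays of this probe set.

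Of 7 tested Eph receptors, 5 had positive and 2 negative values, with a median log2 fold change of 0.09. Epha8, a receptor of ephrin-A ligands, had 121, 195 and 128 in the wildtype and 333, 166 and 162 in the knockout arrays. Only knockout array 1 lay above the wildtype range, and the log2 fold change of 0.47 ± 0.29 (SE) was 0.16 without that array. Epha4, which binds both ephrin classes, had 114, 100 and 86.7 in the wildtype and 43.7, 84.7 and 92.5 in the knockout arrays. Here knockout array 1 was the lowest, and the log2 fold change of -0.40 ± 0.25 was -0.14 without it. Epha7 had the same low array, with 146, 127 and 113 in the wildtype and 52.9, 159 and 122 in the knockout arrays, and its log2 fold change of -0.28 ± 0.31 (SE) was 0.10 without that array.

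Epha5 and Epha3, further ephrin-A receptors, had log2 fold changes of 0.07 and 0.09 and overlapping groups. Of the EphB receptors, Ephb6, whose kinase is inactive, had 67.2, 58.0 and 63.2 in the wildtype and 90.0, 71.8 and 70.0 in the knockout arrays, just above the filter. All 3 knockout arrays lay above the wildtype arrays, and the fitted value was 0.23 ± 0.20 (SE; limma adjusted p = 0.999), or 0.14 without knockout array 1. Ephb3, a receptor of ephrin-B ligands singled out after its values were seen, had 153, 34.3 and 120 in the wildtype and 100, 111 and 115 in the knockout arrays. Wildtype array 2 was far below the others, and the log2 fold change of 0.23 was -0.28 without it. Epha1, Epha6 and Ephb4 lay below the filter, with mean signals of 32.5, 44.4 and 13.8.

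**Figure D4:**
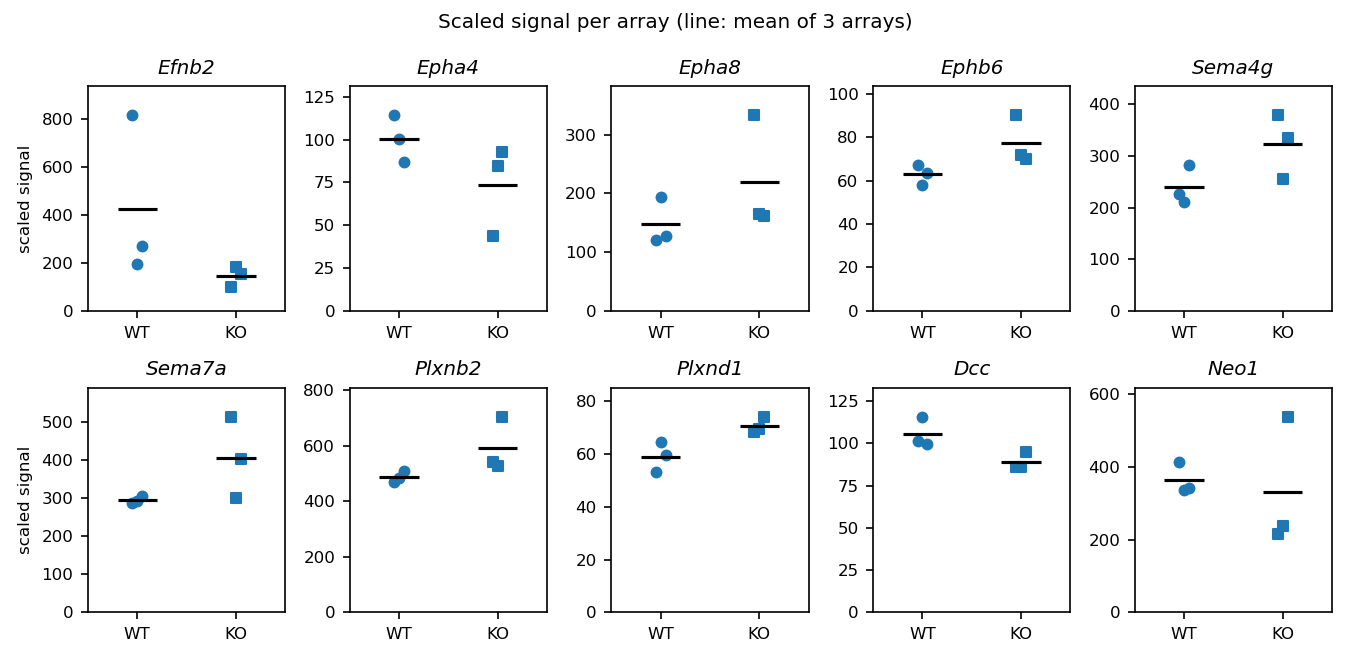
Scaled signal per array of 10 genes, with circles for the 3 wildtype (WT) and squares for the 3 knockout (KO) arrays, a line at each mean and axes that start at 0. The groups do not overlap for Efnb2, Ephb6, Plxnb2, Plxnd1 and Dcc, and overlap for Epha4, Epha8, Sema4g, Sema7a and Neo1.

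Semaphorins had positive values in 5 and negative values in 6 of 11 tested genes, with a median log2 fold change of -0.04 that became 0.02 with quantile normalization and 0.05 with median scaling. The secreted class 3 ligands, which act through neuropilins and plexins, had 2 tested members, both with negative values. Sema3a, a repellent cue with the smallest spread within groups of the 37 genes (SD 0.06 on the log2 scale), had 149, 131 and 141 in the wildtype and 127, 132 and 132 in the knockout arrays. Its log2 fold change of -0.09 had a 95% interval of -0.46 to 0.27, and without rescaling it was 0.18. Sema3f, also a repellent, had 113, 140 and 150 in the wildtype and 113, 125 and 131 in the knockout arrays, a log2 fold change of -0.11 ± 0.18 (SE). Sema3b, Sema3c and Sema3e lay below the filter.

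Of the membrane semaphorins, Sema4g had 227, 210 and 282 in the wildtype and 378, 256 and 335 in the knockout arrays. Knockout arrays 1 and 3 lay above the wildtype range and array 2 within it. For Sema4g the fitted value was 0.40 ± 0.20 (SE; 95% interval -0.04 to 0.83; limma adjusted p = 0.999), and 0.28 without knockout array 1. Sema7a, a membrane-anchored semaphorin that also acts through integrins, had 289, 293 and 306 in the wildtype and 515, 300 and 404 in the knockout arrays. The wildtype arrays lay within a narrow range while the knockout arrays did not. The change was 0.40 ± 0.20 (SE) on the log2 scale, and 0.22 without knockout array 1.

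Sema4a, known for a role in photoreceptors, had 82.8, 64.1 and 78.0 in the wildtype and 47.6, 72.8 and 88.1 in the knockout arrays, with a log2 fold change of -0.11 that was 0.08 without knockout array 1. Sema5a and Sema5b, which confine neurites to the inner retina, had log2 fold changes of 0.08 ± 0.25 and -0.17 ± 0.21 (SE). Sema5a ranged from 90.9 to 95.8 in the wildtype and from 63.5 to 146 in the knockout arrays. Its wildtype arrays thus lay inside the knockout range. Sema6c and Sema6d, transmembrane ligands of class A plexins, had -0.04 ± 0.32 and 0.24 ± 0.21 (SE). Sema4d and Sema4f had 0.23 and -0.06. Sema4b, Sema6a and Sema6b lay below the filter, and Sema6b ranged from 9.69 to 75.7 within the wildtype arrays.

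All 5 tested plexins, the semaphorin receptors, had positive log2 fold changes, between 0.01 and 0.26, and 0 passed the test. The count was also 5 of 5 with quantile normalization, median scaling and no rescaling, but 4 of 5 with array weights, without wildtype array 2 or 3, without knockout array 1, and without both wildtype array 2 and knockout array 1. It was 3 of 5 without knockout array 3 and 5 of 7 with no filter. Plxnb2, a receptor of class 4 semaphorins, had 470, 483 and 510 in the wildtype and 541, 526 and 704 in the knockout arrays, without overlap. On the log2 scale the difference was 0.26 ± 0.16 (SE; limma adjusted p = 0.999), and 0.13 without knockout array 3. Plxnd1, an endothelial receptor of Sema3e, had 53.1, 64.7 and 59.6 in the wildtype and 68.3, 69.7 and 74.2 in the knockout arrays, also without overlap. The Plxnd1 mean was 59.1 in the wildtype, below the filter, and 70.7 in the knockout arrays. Plxnd1 was thus tested only through its knockout signal, which favoured a positive value, and the count of 5 includes it. The difference was 0.20 ± 0.19 (SE) on the log2 scale.

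Plxna2, Plxna3 and Plxnc1 had overlapping groups. Plxna2, a receptor of class 6 semaphorins, had 337, 326 and 231 in the wildtype and 237, 352 and 456 in the knockout arrays, with a log2 fold change of 0.18 ± 0.25 (SE). That value was 0.42 without knockout array 1 and -0.02 without knockout array 3. Plxna3 had 306, 213 and 205 in the wildtype and 269, 194 and 266 in the knockout arrays, a log2 fold change of 0.01 that was -0.06 without knockout array 1. For Plxnc1, the receptor of Sema7a, the value was 0.26 ± 0.24 (SE). Plxna1 and Plxnb3 lay below the filter, with mean signals of 46.4 and 51.6 in the wildtype and 31.4 and 37.8 in the knockout arrays.

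Of the Slit ligands, repellents of commissural and retinal axons, Slit2 was tested. It had 442, 394 and 541 in the wildtype and 352, 433 and 666 in the knockout arrays, and the knockout arrays spanned the wildtype range. Its fitted value was 0.04 ± 0.24 (SE), and -0.21 without knockout array 3. Slit1 ranged from 10.6 to 33.0 and Slit3 from 4.06 to 9.14 over the 6 arrays, both below the filter. Of the Robo family, Robo1 had 62.1, 61.2 and 112 in the wildtype and 63.4, 85.0 and 69.2 in the knockout arrays. Its log2 fold change of -0.06 became 0.05 with quantile normalization. Robo4, an endothelial receptor, had 83.0, 83.2 and 59.6 and then 89.7, 67.6 and 84.1, with overlapping groups and a value of 0.08 ± 0.21 (SE). Robo3 lay below the filter, between 22.2 and 41.3.

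Of 5 netrin family genes, Ntng1, which encodes a membrane-anchored netrin-G, was tested. It had 90.4, 76.1 and 130 in the wildtype and 62.6, 160 and 114 in the knockout arrays, with a log2 fold change of 0.11 ± 0.30 (SE). The groups overlapped fully. Ntn1, the classical netrin, had 34.4, 36.2 and 23.3 in the wildtype and 32.2, 28.4 and 25.4 in the knockout arrays, below the filter, as were Ntn3, Ntn4 and Ntng2.

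The 4 netrin receptors were tested, 2 with positive and 2 with negative values. Dcc, which mediates attraction to netrin, had 101, 116 and 99.5 in the wildtype and 85.7, 85.9 and 94.7 in the knockout arrays. All 3 knockout arrays lay below the wildtype arrays. The fitted value for Dcc was -0.21 ± 0.18 (SE; 95% interval -0.60 to 0.19; limma adjusted p = 0.999), and 0.06 without rescaling. Neo1, which encodes the Dcc relative neogenin, had 415, 338 and 344 in the wildtype and 215, 238 and 538 in the knockout arrays. Knockout array 3 was the highest of the 6 and the other knockout arrays were the lowest, so the log2 fold change of -0.25 ± 0.30 (SE) was -0.64 without array 3. Unc5b, an endothelial and neuronal repulsion receptor, had 0.08 ± 0.26 (SE), and -0.14 without knockout array 1. Unc5c, a neuronal repulsion receptor, had 307, 253 and 240 in the wildtype and 252, 226 and 338 in the knockout arrays, a value of 0.01 ± 0.19 (SE).

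Of the 57 genes, 8 had at least 2 tested probe sets, and in 0 of the 8 did all of them share a sign. Of 2935 named genes with at least 2 tested probe sets 44.7% did, and of 1954 with exactly 2 it was 53.4%. Many of the values of the 8 genes were near 0. Besides Efnb2, the widest gap was in Sema3f, whose second tested probe set had 0.51 ± 0.23 (SE) against -0.11 for the brightest. That second probe set had a mean of 55.4 in the wildtype, below the filter, and 86.5 in the knockout arrays. It was thus tested only through its knockout signal, which favoured a positive value. For Plxnc1 the 3 probe sets had 0.26, -0.23 and 0.01, and for Unc5c the 2 had 0.01 and -0.27. The signs of single genes above are thus those of 1 probe set.

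**Figure D5:**
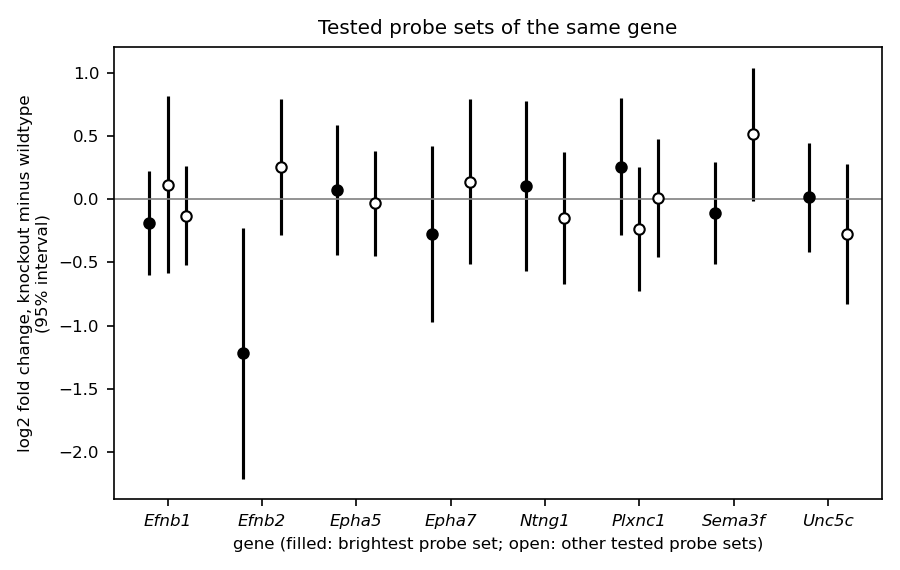
Log2 fold change (knockout minus wildtype) with 95% interval for each tested probe set of the 8 genes that had at least 2, filled for the brightest probe set of a gene and open for the others. In each of the 8 genes at least 1 probe set lies above 0 and 1 below it.

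A list of co-receptors and intracellular effectors of guidance signalling was read from the same fit. Of 66 listed genes, 58 were named on the array and 48 tested, 28 with positive and 20 with negative values, at a median log2 fold change of 0.05. In the test 0 passed in either direction, and 0 changed at least 1.5-fold without overlap. Nrp1, the co-receptor of Sema3a and of vascular growth factor, had 198, 180 and 228 in the wildtype and 256, 238 and 302 in the knockout arrays. All knockout arrays lay above the wildtype arrays, and the fitted value was 0.36 ± 0.17 (SE; limma adjusted p = 0.999). Nrp2, the co-receptor of Sema3f, had 0.14 ± 0.23 (SE) and overlapping groups.

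Contactin 1 (Cntn1), an axonal adhesion molecule, had 1317, 1353 and 1315 in the wildtype and 1023, 997.3 and 1095 in the knockout arrays. All knockout arrays lay below the wildtype arrays, with a log2 fold change of -0.35 ± 0.12 (SE; limma adjusted p = 0.999, unadjusted p = 0.019). Cntn1 was named for the lowest moderated statistic of the 48 tested genes of the list. Of all tested probe sets, 3.82% had an unadjusted p under 0.05 and 9.1% did not overlap. The Cntn1 value lay between -0.39 and -0.32 when single arrays were left out. It was -0.26 with median scaling and -0.04 with no rescaling, where the median of all probe sets was 0.29. Limk1, a kinase that acts on cofilin, had 107, 97.5 and 100.4 in the wildtype and 199, 128 and 112 in the knockout arrays, with a log2 fold change of 0.42 ± 0.22 (SE) that was 0.20 without knockout array 1. Abl1, Cdc42 and Limk2 had 0.29, -0.30 and -0.30, with overlapping groups. Of the 4 tested collapsin response mediators, which relay semaphorin signals, 1 had a positive and 3 had negative values. The brightest probe set of Dpysl3 had -0.01 ± 0.12 (SE).

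The 20 genes below the filter had mean signals between 3.23 and 56.2. In a fit without the filter, 9 of them had positive and 11 negative log2 fold changes. The 3 probe sets of Unc50, which is not a guidance gene, were tested, and the brightest had a log2 fold change of 0.23 ± 0.16 (SE).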

How the data were processed

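Retinal total RNA was hybridised to Affymetrix arrays. The authors deposited 1 linear intensity for each probe set on each array, computed with MAS5 per the submitters' processing notes; its version and detection calls are not given in the sources used here. Groups and replicate numbers come from the labels.

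The 64 control probe sets were left out. Every array was scaled to one mean, with the outer 2% trimmed on either side. Before log2, 19.1 was added, the signal at the 20th percentile, which understates the fold changes of dim probe sets. Knockout minus wildtype was fitted over 13575 probe sets with limma 3.58.1 (R 4.3.3; lmFit, eBayes with an intensity trend, Benjamini-Hochberg) and tested on simulated data. Only 6 arrays limit the precision.

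Names come from the platform's annotation: 20380 had 1 symbol, 691 several and 1555 none. Identifiers ending in _a_at, _s_at or _x_at can hybridise with related transcripts. Members and gene lists were chosen with earlier results of these data known. Named genes were those past the threshold or 1.5-fold apart without overlap, the highest and lowest moderated statistic per family, all genes of families of up to 4, and of the effector list Nrp1, Nrp2 and the 3 highest and 3 lowest; others named were chosen after their values were seen. The targeted gene is not reported here. Same-numbered arrays deviated together at correlations of 0.18, -0.03 and 0.08, so the number was not taken as pairing.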

Additional observations from a re-analysis of the deposited data

How the results depend on the processing

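Across the 20 alternatives run, 0 of 813 values of the 44 genes named with a fitted value passed a limma adjusted p of 0.05, and the lowest was 0.58. The count of guidance genes past the threshold was 0 throughout. The count 1.5-fold apart without overlap (1) was 0 with median scaling and with the mean of a gene's probe sets, and with no rescaling the 1 gene was Epha8 in place of Efnb2. Leaving out single arrays gave 1 to 2, adding Epha8 without wildtype array 2, Sema7a without knockout array 2 and Neo1 without knockout array 3. In these 3 settings 1.945%, 5.65% and 3.17% of all tested probe sets met the same rule. That share was 1.61% with all arrays and 2.68% with no rescaling. The count of positive values (23 of 37) was 12 of 16 with the stricter filter, and 18 to 24 when single arrays were left out. Over all probe sets, the count past the threshold (2) was 10 with no rescaling and 1 with no filter. It was 0 by the ordinary statistic, 4 without wildtype 2 and knockout 1, and 0 to 4 when single arrays were left out (0 without wildtype 3, 4 without wildtype 2, 1 without knockout 2 or 3). Fewer probe sets or arrays were tested in some of these, and otherwise the cause was not tested. With the replicate block, 2 probe sets and 0 guidance genes passed, Efnb2 had -1.22 (limma adjusted p = 0.73), and no other call changed.

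Signs turned in 67 of the 813 values. With no rescaling they did for Cdc42 (0.017), Dcc (0.056), Efna4 (0.12), Efnb1 (0.11), Limk2 (0.006), Neo1 (0.049), Robo1 (0.17), Sema3a (0.18), Sema3f (0.16), Sema4a (0.13), Sema4f (0.19), Sema5b (0.11) and Sema6c (0.26), where the median of all probe sets was 0.29. They did for Robo1 (0.014), Sema4f (0.016) and Sema6c (0.053) with median scaling and for Robo1 (0.054) and Sema4f (0.015) with quantile normalization. Array weights turned Plxna3 (-0.060), Robo1 (0.096), Robo4 (-0.013), Sema4a (0.048) and Unc5b (-0.17), and the mean of a gene's probe sets Ntng1 (-0.019), Sema3f (0.20) and Unc5c (-0.13). Without wildtype 2 and knockout 1, Cdc42 (0.0005), Efna3 (-0.0047), Epha7 (0.099), Ephb3 (-0.23), Plxna3 (-0.14) and Unc5b (-0.026) turned. When single arrays were left out, 19 genes turned sign in at least 1 setting, with values from -0.015 to 0.25 for Efna3, -0.099 to 0.21 for Efnb3, -0.099 to 0.26 for Epha3, -0.070 to 0.30 for Epha5, -0.55 to 0.10 for Epha7, -0.28 to 0.57 for Ephb3, -0.062 to 0.27 for Nrp2, -0.15 to 0.41 for Ntng1, -0.024 to 0.42 for Plxna2, -0.084 to 0.18 for Plxna3, -0.18 to 0.18 for Robo1, -0.044 to 0.18 for Robo4, -0.26 to 0.083 for Sema4a, -0.23 to 0.073 for Sema4f, -0.15 to 0.35 for Sema5a, -0.34 to 0.14 for Sema6c, -0.21 to 0.23 for Slit2, -0.14 to 0.25 for Unc5b and -0.14 to 0.13 for Unc5c.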
